A study of Olea europaea with 12 samples.

Results

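The 4 genes described here act in ethylene synthesis and response in the ripening olive. These are an ACC synthase gene (LOC111380501), an ACC oxidase gene (LOC111370659) and a pair of ETHYLENE INSENSITIVE 3 (EIN3)-like genes, called EIN3 genes here (LOC111401530 and LOC111391955). They are 4 of the 51008 genes in the deposited table and were picked by gene ID, for levels already seen in these same libraries, so their values are a description and carry no test. RNA was sequenced from fruit mesocarp, the fleshy, oil-bearing layer, of the cultivar Koroneiki. The fruit came from trees grown in the field in Greece under ordinary local management in 1 season, with no treatment named, at 4 ages counted in weeks after flowering (WAF), 17, 21, 26 and 30. The library names begin with Sep, Oct, Nov and Dec in the order of age, so fruit age and time of year cannot be told apart. Each age has 3 libraries, A, B and C. The labels do not say whether these came from separate trees, so p-values measure the spread between these libraries, which may be technical. Levels are FPKM, fragments scaled for transcript length and library size, which can be set side by side between genes.

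Plants make ethylene from methionine. SAM synthase turns methionine into S-adenosylmethionine, ACC synthase turns that into 1-aminocyclopropane-1-carboxylate (ACC), often the rate-limiting step, and ACC oxidase turns ACC into ethylene. In Arabidopsis, ethylene binding silences its receptors and the kinase CTR1, which lets EIN2 signal to the transcription factor EIN3 and its relatives. The F-box proteins EBF1 and EBF2 mark EIN3 for breakdown, so that EIN3 is controlled largely as a protein, and EIN3 in turn switches on ethylene response factor (ERF) genes and EBF2. Olive is usually classed as a fruit that ripens without a climacteric burst of ethylene.

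The genes for the last 2 steps of synthesis moved in opposite directions with age, while the EIN3 genes stayed abundant. ACC synthase transcript was highest in the youngest fruit and almost gone in the oldest, ACC oxidase transcript was low until 21 WAF and highest in the oldest fruit, and the EIN3 genes stayed within a 1.36-fold and a 1.34-fold range of their age means. In the same library the FPKM ratio of ACC oxidase LOC111370659 to ACC synthase LOC111380501 averaged 0.0912, 0.256, 6.55 and 185 at the 4 ages from 17 to 30 WAF, with no overlap between ages. At 30 WAF it ran from 152 to 231 over the 3 libraries, in which LOC111380501 had at most 0.64 FPKM. This ratio is of 2 single genes and not of their families. The 10 ACC oxidase genes summed to 29.6 FPKM at 17 WAF and 273.9 FPKM at 30 WAF. The 9 ACC synthase genes summed to 30.2 and 2.15 FPKM at these ages.

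**Figure D1:**
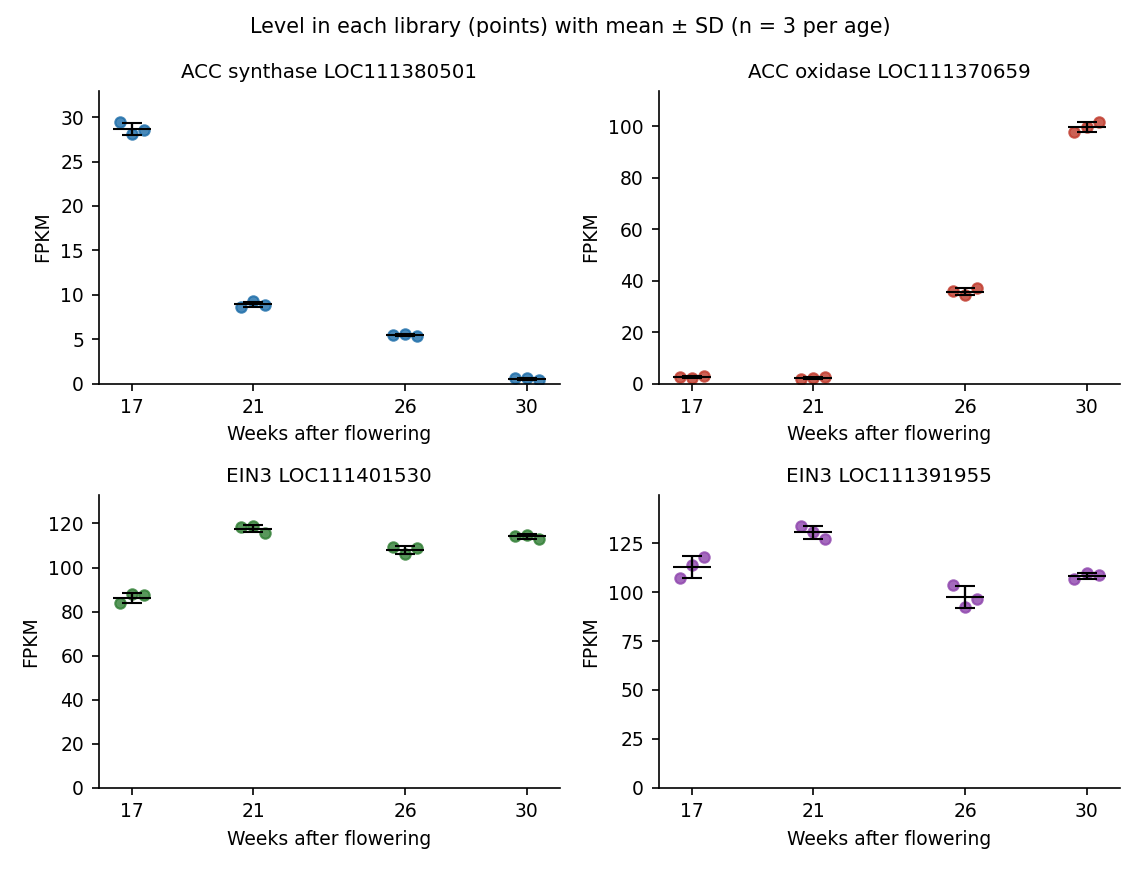
FPKM of the 4 genes in each library against weeks after flowering, with the mean and SD of the 3 libraries of each age as black bars. ACC synthase LOC111380501 steps down at every age, ACC oxidase LOC111370659 climbs after 21 WAF, and both EIN3 genes keep means between 86.4 and 130.5 FPKM.

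ACC synthase LOC111380501 had 29.46, 28.15 and 28.53 FPKM at 17 WAF, 8.63, 9.27 and 8.83 FPKM at 21 WAF, 5.48, 5.55 and 5.34 FPKM at 26 WAF, and 0.64, 0.58 and 0.44 FPKM at 30 WAF. Every library of an age lay below every library of the age before it. Its mean was 8.91 ± 0.327 FPKM at 21 WAF against 28.7 ± 0.674 FPKM at 17 WAF, 3.22-fold lower (SD, n = 3 each). The step between 21 and 26 WAF was smaller, 5.46 ± 0.107 FPKM at 26 WAF against 8.91 FPKM at 21 WAF, 1.63-fold lower. The step after that was the steepest of the 3, with 0.553 ± 0.103 FPKM at 30 WAF against 5.46 FPKM at 26 WAF, 9.86-fold lower. Over the whole span the mean was 51.9-fold lower at 30 WAF than at 17 WAF. On the log2(FPKM + 1) scale, which understates changes of low genes, the difference was -4.26 (SD of the difference 0.102), the 31st largest fall among the 26131 genes with at least 1 FPKM in at least 3 libraries.

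The table names 9 ACC synthase genes, of which LOC111380501 alone passed that filter on low values. Of the other 8, 4 were listed at 0 in all 12 libraries, and none exceeded 1.24 FPKM in any library. LOC111380501 therefore held most of the family's summed level in the younger fruit, 95.2%, 91.7% and 88.5% in the order of age. At 30 WAF its share was 26.2%, ranging from 19.7 to 34.4% over the libraries. The family sum was 2.15 ± 0.259 FPKM at 30 WAF against 30.2 ± 0.862 FPKM at 17 WAF (SD, n = 3 each). LOC111390291, singled out here after its values were seen, was the most abundant ACC synthase gene at 30 WAF in all 3 libraries, with 0.77, 1.24 and 1.15 FPKM at 30 WAF against 0.12, 0.01 and 0.08 FPKM at 17 WAF. LOC111367269, chosen in the same way, followed the direction of LOC111380501, with 0.08, 0.0 and 0.16 FPKM at 30 WAF against 1.23, 0.96 and 1.15 FPKM at 17 WAF. Both are too low to have entered the fit.

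ACC oxidase LOC111370659 had 2.73, 2.31 and 2.82 FPKM at 17 WAF, 1.82, 2.31 and 2.71 FPKM at 21 WAF, 35.81, 34.35 and 36.98 FPKM at 26 WAF, and 97.59, 99.81 and 101.63 FPKM at 30 WAF. The libraries of 17 and 21 WAF overlapped, and those of 26 and 30 WAF lay above all of them and apart from each other. Its mean was 35.7 ± 1.32 FPKM at 26 WAF against 2.28 ± 0.446 FPKM at 21 WAF, 15.7-fold higher (SD, n = 3 each). That log2 difference, 3.49 (SD of the difference 0.205), was the 8th largest rise of the 26131 genes between those ages. The next step was smaller, 99.7 ± 2.02 FPKM at 30 WAF against 35.7 FPKM at 26 WAF, 2.79-fold higher. Between the ends of the series it was 38.0-fold higher at 30 WAF, a log2 difference of 4.80 (SD 0.115) that was the 30th largest rise.

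In bulk tissue, fewer cells of a type and less RNA per cell cannot be told apart. Summed levels of gene lists for other tissues of the fruit moved with age too. The 36 epidermis and cuticle genes summed to 960 to 967 FPKM at 30 WAF against 619 to 630 FPKM at 17 WAF, with 468 to 521 FPKM over the libraries of 21 and 26 WAF. The 33 secondary wall genes, which mark stone and vessel cells, summed to 1385 to 1397 FPKM at 30 WAF against 876 to 912 FPKM at 17 WAF. The 14 seed storage genes ran from 155 to 217 FPKM with no steady direction. The 137 oil synthesis genes, which belong to the labelled tissue, summed to 6216 to 6415 FPKM at 30 WAF against 4815 to 4943 FPKM at 17 WAF and reached 12420 FPKM at 26 WAF. At 30 WAF 4 of the epidermis genes, 6 of the secondary wall genes, 2 of the seed storage genes and 19 of the oil genes were listed at 0 in every library. No list marks mesocarp alone, and the part of these tissues in the results was not tested.

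The other ACC oxidase genes give the levels around LOC111370659. Of 10 genes named as ACC oxidases, 5 passed the filter, among them LOC111370659, 3 were listed at 0 in all 12 libraries, and those under the filter reached at most 0.81 FPKM. For 30 against 17 WAF all 4 others that were tested rose, beside 34.9% of all genes tested that rose and 38.9% that fell (73.9% called, limma with Benjamini-Hochberg adjustment, threshold 0.05). LOC111370655, the most abundant of the family, had 17.92, 18.61 and 20.70 FPKM at 17 WAF, 17.30, 17.15 and 17.64 FPKM at 21 WAF, 43.48, 38.11 and 46.08 FPKM at 26 WAF, and 127.22, 122.24 and 129.59 FPKM at 30 WAF. It rose by 2.67 on the log2 scale at 30 against 17 WAF (SE 0.063, adjusted p = 4e-13). LOC111370656 rose by 2.87 (SE 0.075, adjusted p = 9.9e-13), with a mean of 44.4 ± 1.86 FPKM at 30 WAF against 5.20 ± 0.394 FPKM at 17 WAF. The remaining pair stayed low: LOC111370660 averaged 1.41 ± 0.127 FPKM at 30 WAF against 0.867 ± 0.038 FPKM at 17 WAF, and LOC111407173 averaged 1.76 ± 0.446 FPKM at 30 WAF against 1.06 ± 0.116 FPKM at 17 WAF.

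LOC111370655, LOC111370656, LOC111370660 and LOC111370659 are 4 ACC oxidase genes within a run of 7 consecutive gene entries in the RefSeq assembly O_europaea_v1, and LOC111370660 is the direct neighbour of LOC111370659. Genes in such a run can be near-identical copies, and how the authors' estimate shared reads between them is unknown, so their separate values are uncertain. Their proportions were not fixed. The FPKM ratio of LOC111370659 to LOC111370655 was 0.138 ± 0.014 and 0.131 ± 0.024 at 17 and 21 WAF, then 0.842 ± 0.052 and 0.789 ± 0.025 at 26 and 30 WAF (SD, n = 3 each). Its ratio to LOC111370656 was 0.503 ± 0.028 and 0.467 ± 0.154 at 17 and 21 WAF, then 2.64 ± 0.030 and 2.25 ± 0.049 at 26 and 30 WAF. LOC111370659 thus moved from the third to the second place in the family between 21 and 26 WAF and stayed below LOC111370655 at all 4 ages. Its share of the family's summed level was 8.85% and 8.62% at the first 2 ages (17 and 21 WAF), then 37.9% at 26 WAF and 36.4% at 30 WAF. The sum itself was 273.9 ± 5.50 FPKM at 30 WAF against 29.6 ± 1.63 FPKM at 17 WAF.

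**Figure D2:**
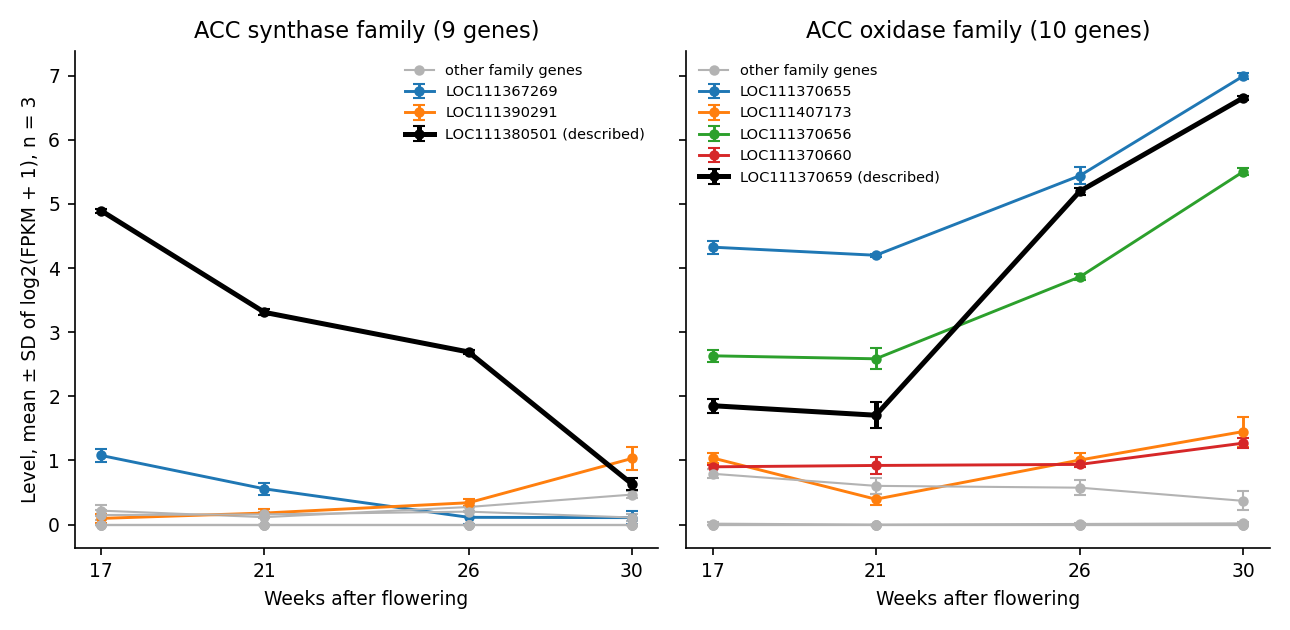
Levels of the 9 ACC synthase genes (left) and the 10 ACC oxidase genes (right) as mean and SD of log2(FPKM + 1) over 3 libraries, against weeks after flowering. The black lines are LOC111380501 and LOC111370659, genes with a mean of at least 1 FPKM at some age are coloured and the rest are grey. ACC synthase LOC111380501 ends below LOC111390291 at 30 WAF, and the ACC oxidase genes LOC111370655, LOC111370656 and LOC111370659 are the 3 with more than 40 FPKM at 30 WAF.

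The step before ACC synthase fell early. All 11 SAM synthase genes tested were lower at 21 than at 17 WAF, with a median log2 difference of -0.40 against -0.069 for all genes tested, 35.9% of which fell and 22.2% of which rose (58.1% called). For LOC111387563, the smallest of these falls (-0.13, adjusted p = 0.017), the call was lost with median-of-ratios scaling (adjusted p = 0.31) and without replicate C of 17 or of 21 WAF (adjusted p = 0.063 and 0.068). The most abundant, LOC111390594, averaged 206.7 ± 10.8 FPKM at 21 WAF against 541.1 ± 2.54 FPKM at 17 WAF and was still at 188.3 ± 5.74 FPKM at 30 WAF. LOC111409846, among the 3 most abundant, averaged 91.4 ± 4.2 FPKM at 21 WAF and 104.4 ± 3.77 FPKM at 30 WAF against 116.4 ± 2.24 FPKM at 17 WAF. The 12 genes of the family summed to 1120 ± 3.18 FPKM at 17 WAF, 620.4 ± 16.5 FPKM at 21 WAF, 670.3 ± 16.7 FPKM at 26 WAF and 639.4 ± 4.27 FPKM at 30 WAF. For 30 against 17 WAF 9 genes fell, 1 rose and 1 did not pass, where 34.9% of all genes rose and 38.9% fell (73.9% called). The largest fall was that of LOC111374289, which averaged 2.72 ± 0.346 FPKM at 30 WAF against 31.4 ± 2.4 FPKM at 17 WAF (log2 difference -3.13, SE 0.081, adjusted p = 9.6e-13). This fall was late, since LOC111374289 averaged 23.8 ± 2.23 FPKM at 21 WAF and still 30.5 ± 1.6 FPKM at 26 WAF. The gene that rose was LOC111387563, with 145.1 ± 2.86 FPKM at 30 WAF against 111.1 ± 2.95 FPKM at 17 WAF (log2 difference 0.38, SE 0.043, adjusted p = 3.5e-06).

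Genes that return methylthioadenosine, the by-product of ACC synthase, to methionine mostly passed as higher at 21 and at 30 WAF, each against 17 WAF. Of 13 tested, 10 rose and 2 fell at 21 against 17 WAF, where 22.2% of all genes rose and 35.9% fell. At 30 against 17 WAF 9 rose and 2 fell, where 34.9% of all genes rose and 38.9% fell (73.9% called). The medians were 0.36 and 0.29 on the log2 scale against -0.069 and -0.033 for all genes. At 26 against 21 WAF 5 of the 13 rose and 3 fell, where 23.2% of all genes rose and 32.9% fell. At 30 against 26 WAF 4 rose, 2 fell and 7 did not pass, where 42.0% of all genes rose and 24.3% fell. With median-of-ratios scaling 4 rose and 6 fell in that last step. The most abundant, LOC111393695, encodes a 1,2-dihydroxy-3-keto-5-methylthiopentene dioxygenase of this cycle and averaged 715.7 ± 17.2 FPKM at 30 WAF against 535.7 ± 10.4 FPKM at 17 WAF (log2 difference 0.42, SE 0.028, adjusted p = 1.8e-08). The nucleosidase gene LOC111410104 averaged 99.0 ± 2.29 FPKM at 30 WAF against 73.0 ± 3.68 FPKM at 17 WAF. The largest rise was in a second dioxygenase gene, LOC111371705, with 153.6 ± 3.99 FPKM at 30 WAF against 80.6 ± 1.77 FPKM at 17 WAF. The methylthioribose-1-phosphate isomerase LOC111411437 had the largest fall, 47.5 ± 2.36 FPKM at 30 WAF against 60.3 ± 2.36 FPKM at 17 WAF (log2 difference -0.34, SE 0.042, adjusted p = 8.9e-06).

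ETO1 and its relatives, which in Arabidopsis send certain ACC synthases to breakdown, were split. LOC111402053 averaged 54.2 ± 1.33 FPKM at 30 WAF against 43.6 ± 0.888 FPKM at 17 WAF and rose by 0.31 on the log2 scale (SE 0.033, adjusted p = 2.2e-06). LOC111405780 fell, with 6.60 ± 0.406 FPKM at 30 WAF against 8.42 ± 0.356 FPKM at 17 WAF, and LOC111403666 did not pass, with 3.29 ± 0.186 FPKM at 30 WAF against 3.25 ± 0.155 FPKM at 17 WAF. Names alone also bring in genes that are not known to make ethylene. Of 13 such ACC oxidase homologs, related oxygenases, 10 rose and 2 fell at 30 against 17 WAF, where 34.9% of all genes rose and 38.9% fell (73.9% called). The most abundant, LOC111387622, was highest at 21 WAF, with 182.7 ± 4.38 FPKM, and averaged 98.7 ± 2.1 FPKM at 30 WAF against 52.1 ± 0.291 FPKM at 17 WAF. LOC111392647 and LOC111379134 rose as well, to 34.9 ± 1.14 and 22.0 ± 0.614 FPKM at 30 WAF against 24.7 ± 1.09 and 18.1 ± 0.590 FPKM at 17 WAF. LOC111392646 had the largest fall, with 4.43 ± 0.395 FPKM at 30 WAF against 7.37 ± 0.435 FPKM at 17 WAF. LOC111376167 had the largest rise among them, 25.8 ± 0.558 FPKM at 30 WAF against 1.01 ± 0.155 FPKM at 17 WAF (log2 difference 3.74, SE 0.064, adjusted p = 1.6e-14). Of 5 genes named for the Arabidopsis aminotransferases ACS10 and ACS12, which resemble ACC synthase without its activity, 4 fell and 1 did not pass at 30 against 17 WAF. LOC111368789 averaged 8.37 ± 0.686 FPKM at 30 WAF against 13.4 ± 0.182 FPKM at 17 WAF, and LOC111406770 averaged 2.96 ± 0.020 FPKM at 30 WAF against 4.45 ± 0.351 FPKM at 17 WAF. LOC111385390 and LOC111379491 were the other falls (log2 differences -0.34 and -0.24), the second of them lost without replicate C of 30 WAF (adjusted p = 0.056). LOC111396896, with 13.8 ± 0.570 FPKM at 30 WAF against 13.6 ± 0.868 FPKM at 17 WAF, did not pass.

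On the receptor side, 4 of 5 tested receptor genes rose at 30 against 17 WAF and none fell, where 34.9% of all genes rose and 38.9% fell (73.9% called). With TPM scaling 2 passed, and with median-of-ratios scaling all 5 did. LOC111370876, an ETHYLENE RECEPTOR 2 gene that held most of the family's transcript, had 54.85, 56.39 and 57.77 FPKM at 17 WAF, 73.01, 76.07 and 76.98 FPKM at 21 WAF, 82.48, 83.96 and 80.40 FPKM at 26 WAF, and 95.46, 97.00 and 97.86 FPKM at 30 WAF. Each age lay above the age before it, and between the ends it rose by 0.77 on the log2 scale (SE 0.031, adjusted p = 8.4e-11). The EIN4-like receptor LOC111407345 averaged 9.62 ± 0.323 FPKM at 30 WAF against 8.13 ± 0.483 FPKM at 17 WAF (log2 difference 0.22, SE 0.051, adjusted p = 0.0017). LOC111374308 averaged 26.3 ± 0.076 FPKM at 30 WAF against 23.2 ± 1.22 FPKM at 17 WAF, and LOC111373392 averaged 2.48 ± 0.187 FPKM at 30 WAF against 1.95 ± 0.105 FPKM at 17 WAF. The calls of LOC111374308 and LOC111373392 were lost with TPM scaling (adjusted p = 0.16 and 0.066). LOC111374308 also missed the threshold without replicate B of 17 WAF (adjusted p = 0.062), and LOC111373392 without replicate B of 17 WAF or replicate A of 30 WAF (adjusted p = 0.056 and 0.066). LOC111383903, EIN4-like, did not pass (3.85 ± 0.087 FPKM at 30 WAF against 3.44 ± 0.123 FPKM at 17 WAF, adjusted p = 0.057), but did with median-of-ratios scaling (0.026) and without replicate A of 21 WAF (0.049). At 21 against 17 WAF 1 of the 5 rose and 2 fell, where 22.2% of all genes rose and 35.9% fell. LOC111373392 fell to 0.55 ± 0.052 FPKM at 21 WAF (log2 difference -0.93, SE 0.079, adjusted p = 4.7e-07). LOC111407345 fell to 6.35 ± 0.125 FPKM at 21 WAF (log2 difference -0.31, SE 0.051, adjusted p = 0.00017). With TPM scaling 1 rose and 3 fell there, and with median-of-ratios scaling 2 rose and 2 fell. The 7 receptor genes summed to 139.3 ± 1.35 FPKM at 30 WAF against 93.4 ± 1.33 FPKM at 17 WAF.

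Of 6 genes for receptor partners, the copper transporter RAN1 and the RTE1 family that act on receptors in Arabidopsis, 2 fell and 4 did not pass at 30 against 17 WAF, where 34.9% of all genes rose and 38.9% fell (73.9% called). With TPM scaling 3 fell, and with median-of-ratios scaling 1 rose and 2 fell. The falls were those of an RTE1-like gene, LOC111375210, with 1.403 ± 0.308 FPKM at 30 WAF against 3.24 ± 0.205 FPKM at 17 WAF, and of a RAN1-like gene, LOC111407284, with 0.577 ± 0.254 FPKM at 30 WAF against 1.43 ± 0.275 FPKM at 17 WAF. The log2 differences of LOC111387524, LOC111370434, LOC111401953 and LOC111373540, which did not pass, lay between -0.13 and 0.13. LOC111370434 passed as lower with TPM scaling (adjusted p = 0.014) and without replicate B of 30 WAF (0.020), and LOC111401953 as higher with median-of-ratios scaling (0.046) and without replicate C of 30 WAF (0.024). At 21 against 17 WAF 4 of the 6 fell and none rose, where 22.2% of all genes rose and 35.9% fell. These were LOC111375210, LOC111387524, LOC111401953 and LOC111373540. With TPM scaling 5 fell in that step, and with median-of-ratios scaling 3. LOC111387524 averaged 19.5 ± 1.33 FPKM at 17 WAF, 12.2 ± 1.91 FPKM at 21 WAF and 18.8 ± 0.982 FPKM at 26 WAF. Of 3 CTR1-like kinase genes tested, 2 fell at 30 against 17 WAF. LOC111383843 averaged 9.20 ± 0.781 FPKM at 30 WAF against 11.5 ± 0.711 FPKM at 17 WAF. LOC111408423 averaged 0.687 ± 0.134 FPKM at 30 WAF against 1.37 ± 0.112 FPKM at 17 WAF. The third, LOC111412761, averaged 14.7 FPKM at both ages. Of the EIN2-like genes, LOC111365436 averaged 41.6 ± 1.61 FPKM at 30 WAF against 32.02 ± 0.397 FPKM at 17 WAF and rose by 0.37 on the log2 scale (SE 0.038, adjusted p = 1.4e-06). The other, LOC111374032, averaged 10.8 ± 0.775 FPKM at 30 WAF against 9.92 ± 0.289 FPKM at 17 WAF and did not pass (adjusted p = 0.082), but did with median-of-ratios scaling (0.027) and without replicate A of 30 WAF (0.047).

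EIN3 gene LOC111401530 had 83.79, 87.87 and 87.41 FPKM at 17 WAF, 118.20, 118.78 and 115.81 FPKM at 21 WAF, 109.41, 105.99 and 108.91 FPKM at 26 WAF, and 114.51, 114.92 and 112.86 FPKM at 30 WAF. All libraries of the later ages lay above those of 17 WAF, and the 4 ages did not overlap in any pair. Its mean was 117.6 ± 1.57 FPKM at 21 WAF against 86.4 ± 2.23 FPKM at 17 WAF (log2 difference 0.44, SD of the difference 0.042, n = 3 each). After that step it moved little, with log2 differences of -0.12 at 26 against 21 WAF and 0.08 at 30 against 26 WAF. With median-of-ratios scaling these were -0.06 and -0.027, so that the sign of the last value turned.

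EIN3 gene LOC111391955 had 107.14, 113.66 and 117.86 FPKM at 17 WAF, 133.73, 130.69 and 127.13 FPKM at 21 WAF, 103.72, 92.46 and 96.40 FPKM at 26 WAF, and 106.90, 109.84 and 108.59 FPKM at 30 WAF. It was highest at 21 WAF and lowest at 26 WAF, and only the libraries of 17 and 30 WAF overlapped. Its mean was 97.5 ± 5.71 FPKM at 26 WAF against 130.5 ± 3.30 FPKM at 21 WAF, 1.34-fold lower (log2 difference -0.42, SD of the difference 0.091). Between the ends the log2 difference was -0.056 (SD 0.072), within the spread of the libraries, with 108.4 ± 1.48 FPKM at 30 WAF against 112.9 ± 5.40 FPKM at 17 WAF. It was -0.023 with median-of-ratios scaling and -0.135 with TPM scaling, and -0.093 without replicate A of 17 WAF and -0.025 without replicate C of 17 WAF. The FPKM ratio of LOC111401530 to LOC111391955 in the same library was 0.766 ± 0.021 and 0.901 ± 0.015 at 17 and 21 WAF, then 1.11 ± 0.049 and 1.05 ± 0.017 at 26 and 30 WAF, so that LOC111391955 was the higher of the pair up to 21 WAF and LOC111401530 from 26 WAF on.

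Over the 4 genes, the libraries of 30 and 17 WAF did not overlap for 3, and the same held for 75.0% of all genes tested. For 21 against 17 WAF it was also 3 of 4 (65.0% of all genes). For 26 against 21 and for 30 against 26 WAF it was all 4 (62.9% and 68.7% of all genes). It was all 4 as well for 30 against 21 WAF (74.4%) and for 26 against 17 WAF (72.0%). Since the genes were chosen for their levels, nothing is read from these counts.

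The EIN3 family has 8 genes in the table, and 7 passed the filter. Their descriptions do not set LOC111401530 and LOC111391955 apart. LOC111403435, LOC111388784, LOC111379395 and LOC111412697 are described by the same words, protein ETHYLENE INSENSITIVE 3-like. The 5 genes other than the pair were tested. At 26 against 21 WAF all 5 fell, beside 32.9% of all genes tested that fell and 23.2% that rose (56.1% called), with a median of -0.50 on the log2 scale against -0.056 for all genes. The most abundant of them, LOC111403435, averaged 59.3 ± 0.421 FPKM at 26 WAF against 88.1 ± 1.48 FPKM at 21 WAF (log2 difference -0.56, SE 0.029, adjusted p = 5.5e-09). LOC111388784 had the largest fall, 13.9 ± 0.330 FPKM at 26 WAF against 22.2 ± 0.886 FPKM at 21 WAF (log2 difference -0.64, SE 0.049, adjusted p = 2.5e-07). LOC111369766, named EIN3-like 3, had the smallest, 11.4 ± 0.646 FPKM at 26 WAF against 13.1 ± 0.573 FPKM at 21 WAF (log2 difference -0.18, SE 0.049, adjusted p = 0.0065).

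At 30 against 26 WAF 4 of these 5 rose and 1, LOC111369766, did not pass. Over all genes tested 42.0% rose and 24.3% fell in that step (66.3% called). LOC111403435 rose by 0.46 (SE 0.029, adjusted p = 1.7e-08), LOC111379395 by 0.40 (SE 0.037, adjusted p = 6.7e-07) and LOC111412697 by 0.37 (SE 0.062, adjusted p = 0.00016). With median-of-ratios scaling the rise of LOC111388784 was lost (adjusted p = 0.20) and LOC111369766 passed as lower, so that the split was 3 higher and 1 lower. At 30 against 17 WAF 3 rose and 2 fell, where 34.9% of all genes rose and 38.9% fell (73.9% called). With TPM scaling 1 rose and 2 fell in that comparison, since LOC111403435 and LOC111379395 no longer passed (adjusted p = 0.39 and 0.089). The sum of the 8 genes was 372.4 ± 8.07 FPKM at 17 WAF, 441.5 ± 8.46 FPKM at 21 WAF, 341.9 ± 6.95 FPKM at 26 WAF and 400.2 ± 2.92 FPKM at 30 WAF. LOC111401530 and LOC111391955 together held 53.5%, 56.2%, 60.1% and 55.6% of it in the order of age.

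**Figure D3:**
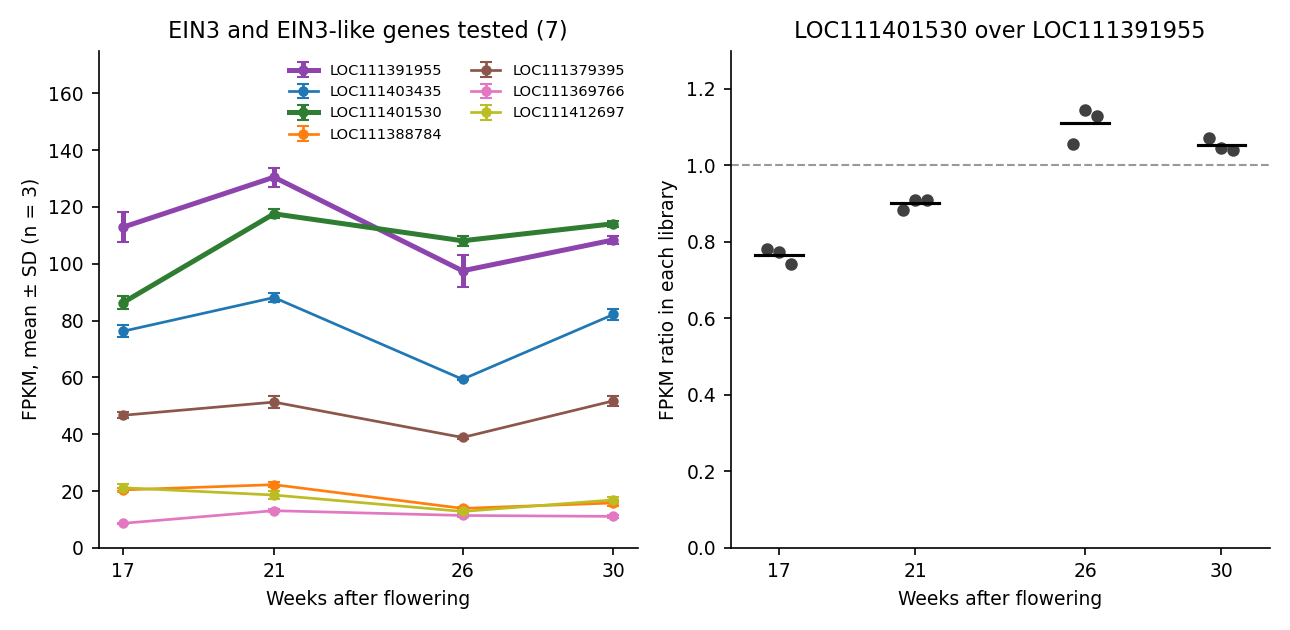
Left, FPKM (mean and SD, n = 3) of the 7 EIN3 and EIN3-like genes that passed the filter, against weeks after flowering. Right, the FPKM ratio of LOC111401530 to LOC111391955 in each library, with a bar at the mean and a dashed line at 1. All 7 genes lie lower at 26 than at 21 WAF, and the ratio lies below 1 at 17 and 21 WAF and above 1 at 26 and 30 WAF.

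In the last step the genes for the F-box proteins that remove EIN3 rose together. All 4 tested EBF genes were higher at 30 against 26 WAF, beside 42.0% of all genes tested that rose and 24.3% that fell (66.3% called). LOC111387870, named EBF2-like, had 23.20, 24.28 and 26.78 FPKM at 17 WAF, 14.18, 13.39 and 12.38 FPKM at 21 WAF, 12.01, 10.36 and 10.16 FPKM at 26 WAF, and 50.74, 52.86 and 51.93 FPKM at 30 WAF. It rose by 2.16 on the log2 scale at 30 against 26 WAF (SE 0.067, adjusted p = 1.4e-11) and fell before that, by 0.85 at 21 against 17 WAF and by 0.28 at 26 against 21 WAF. The other 3, EBF1-like genes, had log2 differences of 0.76, 0.57 and 0.29 in that step. LOC111368180 rose to 20.8 ± 1.04 FPKM at 30 WAF against 11.9 ± 0.668 FPKM at 26 WAF, LOC111387511 to 13.4 ± 0.616 FPKM at 30 WAF against 8.75 ± 0.626 FPKM at 26 WAF, and LOC111373045 to 2.71 ± 0.070 FPKM at 30 WAF against 2.04 ± 0.140 FPKM at 26 WAF. LOC111387511 had already reached 14.1 ± 0.455 FPKM at 21 WAF. At 26 against 21 WAF 3 of the 4 EBF genes had fallen and 1 did not pass. Over all genes 32.9% fell and 23.2% rose there (56.1% called). At 30 against 17 WAF 3 of the 4 EBF genes rose, where 34.9% of all genes rose and 38.9% fell (73.9% called). In that comparison LOC111373045 fell, with 2.71 FPKM at 30 WAF against 3.92 ± 0.251 FPKM at 17 WAF. The 6 EBF genes summed to 53.7 ± 2.59 FPKM at 17 WAF, 47.3 ± 1.08 FPKM at 21 WAF, 33.7 ± 1.96 FPKM at 26 WAF and 89.4 ± 2.46 FPKM at 30 WAF. EIN5, LOC111383991, an exoribonuclease that in Arabidopsis lowers EBF1 and EBF2 transcripts, fell at 30 against 17 WAF, with 6.32 ± 0.085 FPKM at 30 WAF against 13.0 ± 0.465 FPKM at 17 WAF (log2 difference -0.93, SE 0.040, adjusted p = 2e-10). It fell at 26 against 21 WAF, where 3 of the 4 EBF genes fell too, and at 30 against 26 WAF (log2 differences -0.36 and -0.64). A link between EIN5 and EBF levels was not tested.

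Over all lists of synthesis, receptors and signalling, without the 4 genes described here, 72 of 75 tested genes changed over the 4 ages in limma's moderated F test, beside 89.9% of all genes. At 21 against 17 WAF 23 rose and 27 fell, a balance that depended on the scaling, with 28 higher and 23 lower by median of ratios and 22 higher and 34 lower by TPM. At 26 against 21 WAF 25 rose and 25 fell. At 30 against 26 WAF 38 rose and 12 fell, and with median-of-ratios scaling 35 rose and 21 fell. At 30 against 17 WAF 36 rose and 26 fell. The 75 genes include the ACC oxidase homologs and the ACS10/ACS12 genes. Without these, 57 genes were left, of which 28 rose and 8 fell at 30 against 26 WAF. At 30 against 17 WAF 26 of the 57 rose and 20 fell. Of the 75 genes, the shares that passed were 66.7% in each of the first 3 comparisons and 82.7% in the last, against 58.1%, 56.1%, 66.3% and 73.9% of all genes. Their median log2 differences were -0.054, -0.008, 0.16 and 0.12 against -0.069, -0.056, 0.10 and -0.033. Over all genes the share of rises among the calls was 38.2% at 21 against 17 WAF and 63.4% at 30 against 26 WAF, and with median-of-ratios scaling 49.6% and 51.3%.

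**Figure D4:**
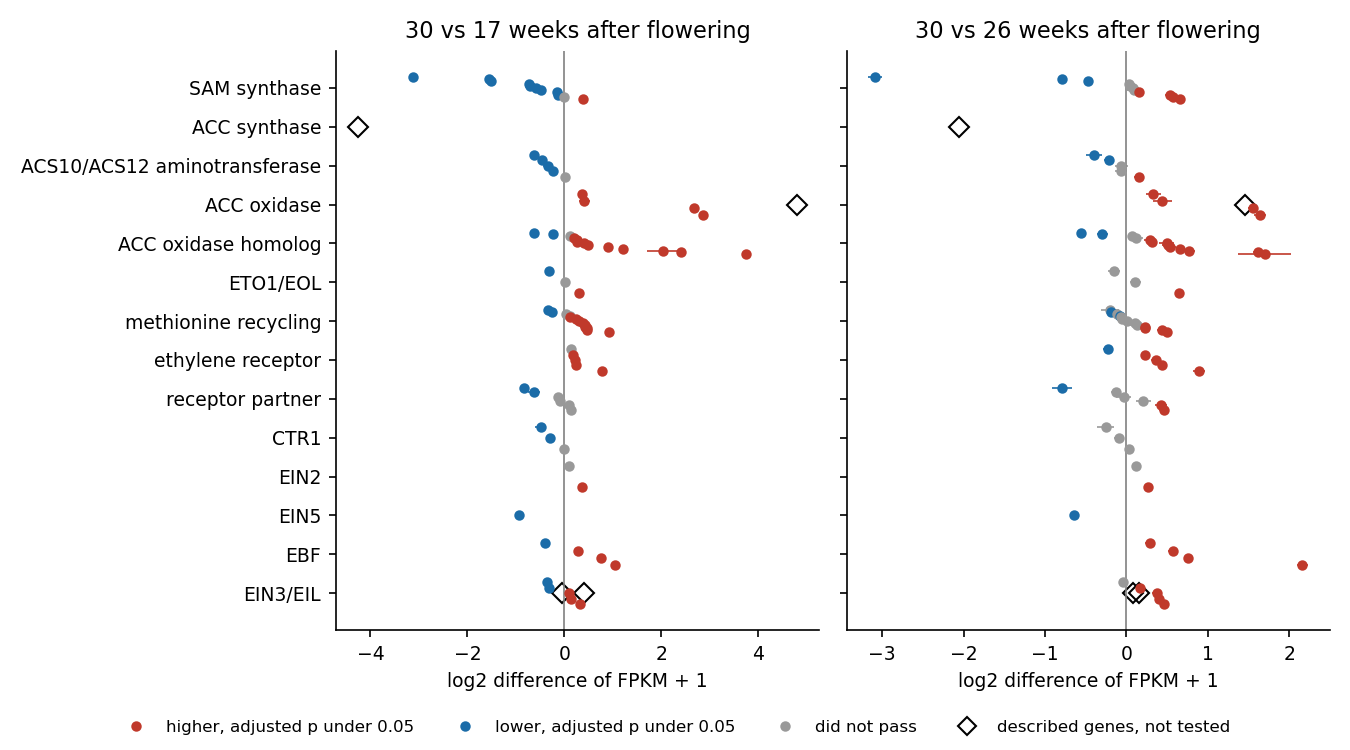
Log2 difference of FPKM + 1 at 30 against 17 WAF (left) and at 30 against 26 WAF (right) for each tested gene of the ethylene lists, with its SE. Red and blue points passed at an adjusted p under 0.05 (limma) as higher and lower at 30 WAF, grey points did not pass, and open diamonds are the 4 described genes, which were not tested. In the left panel the ACC synthase diamond (-4.26) lies left of all points shown and the ACC oxidase diamond (4.80) right of all of them.

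Downstream, 115 of 246 genes named as ethylene response factors passed the filter. At 30 against 17 WAF 35 rose, 62 fell and 18 did not pass (84.3% called), where 34.9% of all genes rose and 38.9% fell (73.9% called). The median was -0.36 on the log2 scale against -0.033 for all genes. At 21 against 17 WAF 25 rose and 61 fell, where 22.2% of all genes rose and 35.9% fell. At 26 against 21 WAF 31 rose and 51 fell (23.2% and 32.9% of all genes). The last step was near even, with 46 rises and 44 falls at 30 against 26 WAF (42.0% and 24.3% of all genes). With median-of-ratios scaling 40 rose and 48 fell in that step. The most abundant, the RAP2-3-like LOC111371498, averaged 403.7 ± 7.64 FPKM at 30 WAF against 1011 ± 1.03 FPKM at 17 WAF (log2 difference -1.32, SE 0.039, adjusted p = 3.3e-12) after a peak of 1686 ± 28.3 FPKM at 21 WAF. The next were the RAP2-12-like LOC111367665, with 547.1 ± 7.80 FPKM at 30 WAF against 751.1 ± 9.22 FPKM at 17 WAF, and the ERF4-like LOC111395465, with 191.8 ± 6.96 FPKM at 30 WAF against 518.0 ± 20.0 FPKM at 17 WAF, and both fell. The largest fall was that of the TINY-like LOC111366136, at 1.02 ± 0.179 FPKM at 30 WAF against 130.1 ± 2.95 FPKM at 17 WAF (log2 difference -6.02, SE 0.054, adjusted p = 5.8e-17). The largest rise was that of the ABR1-like gene LOC111409375, with 65.3 ± 1.69 FPKM at 30 WAF against 2.90 ± 0.469 FPKM at 17 WAF (log2 difference 4.09, SE 0.073, adjusted p = 2.5e-14). Many genes named in this way belong to the wider AP2/ERF family, whose members do not all respond to ethylene.

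Likeness of pattern was measured as the root mean square difference between log2(FPKM + 1) values of 2 genes over the 12 libraries, each centred on its own mean, among 11055 described genes with at least 10 FPKM on average at some age. Nearest to ACC oxidase LOC111370659 were the ILI3-like transcription factor LOC111366554 (difference 0.21), a secoisolariciresinol dehydrogenase gene, LOC111412273 (0.34), and the expansin gene LOC111403335 (0.39), whose product loosens cell walls. The expansin gene averaged 1.80 ± 0.191 FPKM at 17 WAF, 3.71 ± 0.195 FPKM at 21 WAF, 27.6 ± 1.37 FPKM at 26 WAF and 89.7 ± 5.66 FPKM at 30 WAF. The neighbouring ACC oxidase genes LOC111370656 and LOC111370655 came 109th and 115th.

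ACC synthase LOC111380501 was nearest to a heavy metal-associated isoprenylated plant protein gene, LOC111370984 (difference 0.09), the nudix hydrolase gene LOC111405227 (0.17) and the ERF gene LOC111378971, named ERF027-like (0.20). LOC111378971 averaged 50.8 ± 4.36 FPKM at 17 WAF, 13.4 ± 1.56 FPKM at 21 WAF, 7.73 ± 0.344 FPKM at 26 WAF and 0.980 ± 0.087 FPKM at 30 WAF. The EIN3 genes had different nearest genes. LOC111401530 was nearest to the sugar transporter LOC111385702 (0.035), the FAR1-related LOC111401818 (0.042) and the phytyltransferase LOC111394670 (0.045). LOC111391955 was nearest to genes of the ribosomal proteins S23 and L22-2, LOC111387887 (0.044) and LOC111410033 (0.045), and to the B-box zinc finger gene LOC111395546 (0.046). Within the family LOC111369766 came 75th for LOC111401530 and LOC111379395 came 363rd for LOC111391955. Genes that change little have small differences from many others, so these values are not comparable between the EIN3 genes and the ACC genes.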

How the data were processed

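The deposited FPKM per gene and library, rounded to 2 decimals, were computed by the authors. Per the submitters' processing notes, the tools were RSEM, Bowtie2 2.2.5, StringTie 1.0.4 and HISAT2 2.0.4, with no role stated. For genome build, annotation and strandedness, the sources used here give nothing. No coordinates or sequences are therefore printed, and reads of antisense or near-identical genes could be mixed. The steps of low values did not give back whole reads, so depth is unknown and no counting interval is given. FPKM summed to 790578 to 845585 per library.

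Genes with at least 1 FPKM in at least 3 libraries (26131 of 51008) were fitted with limma 3.58.1 (R 4.3.3) on log2(FPKM + 1), with 4 age means over all 12 libraries, a variance trend and 8 residual degrees of freedom. All gene p-values are 2-sided with Benjamini-Hochberg adjustment over the 26131 genes and a threshold of 0.05. The fit was tested on simulated data. Tables were handled with pandas 2.3.3 and numpy 2.4.6.

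The 4 genes and the gene lists were chosen with earlier results of these data known. Lists are patterns in the gene descriptions. After the descriptions were seen, patterns that caught unrelated names were narrowed, and another count leaves out ACC oxidase homologs and ACS10/ACS12 genes. Of the 51008 genes, 37991 carry an ID with a description, all of which matched the RefSeq gene table (assembly O_europaea_v1), used for names and gene order only. Named genes are all tested genes of lists with at most 8 of them, in larger lists the 3 most abundant and the largest rise and fall at 30 against 17 WAF (adjusted p under 0.05, at least 5 FPKM in the higher age), and the 3 genes most like each of the 4. Other settings tried were each library left out, the letter A, B or C as a block, only the 2 ages of a comparison in the fit, weights per library, scaling to TPM or by median of ratios, a minimum mean of 5 FPKM or no filter, and 0.1 as pseudocount.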

Additional observations from a re-analysis of the deposited data

How the results depend on the processing

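With median-of-ratios scaling the ethylene genes lower at 30 against 26 WAF numbered 21, against 12 as reported. The other counts summed over all ethylene lists stayed within 1.5 times of those reported under each alternative that was run. Counts of single lists moved more: with TPM scaling, receptors higher at 30 against 17 WAF numbered 2 and other EIN3 family genes higher 1, against 4 and 3 as reported. For 30 against 17 WAF, a pseudocount of 0.1 gave log2 differences of 5.20 for LOC111370659 and -5.47 for LOC111380501. TPM scaling gave -4.48 for LOC111380501, 0.32 for LOC111401530 and -0.135 for LOC111391955. By its construction a smaller pseudocount widens log2 differences of low values. TPM scaling divides each library by its FPKM sum, 790578 to 804227 at 17 WAF and 841143 to 845585 at 30 WAF. By construction this lowers log2 differences of abundant genes at 30 against 17 WAF. For the other settings the cause was not tested. No pairing of libraries by letter was seen. Deviations from the age means correlated at -0.086 to 0.074 over 18 same-letter pairs, and none exceeded 0.1. Over 36 pairs with different letters they correlated at -0.148 to 0.15, and 1 exceeded 0.1. These values cannot tell whether libraries with the same letter shared a tree. With the letter as a replicate block, the ethylene genes numbered 36 higher and 26 lower at 30 against 17 WAF, as without it. Leaving out each library in turn gave 34 to 37 higher and 24 to 26 lower for that comparison. Of 224 results of single genes, no direction reversed among calls. Settings other than leaving out a library gave 1740 values, of which 28 lost and 40 gained a call, and leaving out a library gave 2688, of which 50 lost and 25 gained one. Depth is unknown, so no limit for low genes such as LOC111380501 at 30 WAF can be given.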
